A study of Mus musculus with 22 samples.

Results

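The genes described here are 10 acute-phase and complement genes, listed by name: Serpina3n, C3, C4b, Lrg1, Cp, Timp1, Bcl3, Serping1, Cfb and A2m. Of these, 8 had a probe set of their own among the 18820 genes measured in mouse hypothalamus. C4b was read only by a probe set that it shares with its near-identical neighbour C4a and is given separately, and no probe set was paired with C3, which was not analysed here. Hypothalami came from male C57BL/6 mice that were 6 weeks old at inoculation, with 1 array per mouse. Tumour-bearing mice had received Lewis lung carcinoma cells, a transplantable mouse tumour, at a dose of 500000 cells into the muscle of a hind leg. Dissection followed after 10 days in 5 of these mice, after 14 days in 7 and after 17 days in 6, and the 4 control mice were dissected on day 14. The labels give the controls no treatment of their own and do not say whether they were given a mock injection. All mice were housed singly, fed a standard diet freely and anaesthetised with ketamine and xylazine before dissection. The comparisons of days 10 and 17 therefore set different days against each other, and the 3 comparisons share the same control mice.

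The acute-phase response is the change in secreted proteins that follows inflammation, infection or a tumour, and the liver makes most of these proteins under the control of interleukin-6, interleukin-1 and related cytokines acting through STAT3, C/EBP and NF-kB factors. Complement is a cascade of serum proteases and binding proteins, in which C4 and C2 form the convertase of the classical and lectin routes, factor B that of the alternative route, and C3 is cleaved by both. In the brain, astrocytes, microglia and cells of the vessels and meninges make several of these genes locally, and Serpina3n is known as a marker of reactive astrocytes.

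The promoter sequences of Lrg1 and Bcl3, which did not overlap the controls on day 10, and of Cp, whose window held a motif match, are shown so that the windows searched can be read. They are the 250 bases before the transcription start in RefSeq (GRCm38.p6), which held 6 of the 10 genes with 7 starts: Serpina3n, C3, Lrg1, Cp with 2 starts, Timp1 and Bcl3. C4b, Serping1, Cfb and A2m had no entry. Both strands were searched for the STAT motif TTCNNNGAA, the C/EBP motif TTGCNNAA and the NF-kB motif. Over 32851 promoter windows of the same length, 7.02% held the STAT motif, 9.56% the C/EBP motif and 7.25% the NF-kB motif. Capitals mark the C/EBP match in Cp, at -70 to -63 from the second start. No window of Lrg1 or Bcl3 held any of the 3 motifs, which says only that these letters are not in these windows.
Lrg1, chr17:56121947-56122196, minus strand: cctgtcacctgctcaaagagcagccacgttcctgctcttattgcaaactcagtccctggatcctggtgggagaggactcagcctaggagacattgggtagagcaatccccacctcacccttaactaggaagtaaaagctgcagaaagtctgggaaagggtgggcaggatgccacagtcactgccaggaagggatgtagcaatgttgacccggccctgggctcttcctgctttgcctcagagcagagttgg
Bcl3, chr7:19822756-19823005, minus strand: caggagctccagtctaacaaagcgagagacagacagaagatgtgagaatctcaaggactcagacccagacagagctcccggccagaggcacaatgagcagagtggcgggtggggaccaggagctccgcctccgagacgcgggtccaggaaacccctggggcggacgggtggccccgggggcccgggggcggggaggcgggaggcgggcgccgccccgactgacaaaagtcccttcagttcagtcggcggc
Cp, second start, chr3:19956999-19957248, plus strand: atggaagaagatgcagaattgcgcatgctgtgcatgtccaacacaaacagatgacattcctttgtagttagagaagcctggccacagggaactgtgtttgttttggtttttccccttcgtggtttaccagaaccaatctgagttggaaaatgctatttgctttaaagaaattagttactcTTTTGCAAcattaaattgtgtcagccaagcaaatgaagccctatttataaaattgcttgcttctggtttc
The only other match among the 7 windows was a C/EBP match in C3, at -45 to -38.

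Values below are RMA values on the log2 scale, in which a difference of 1 is a factor of 2, and differences from control are given with their standard error (SE) from a limma fit to all 22 arrays. A gene was called changed where its Benjamini-Hochberg adjusted p over 18820 genes was below 0.05. RMA values of different genes depend on their probes and are not set against each other. The level of background was taken as 3.87, below which 95% of the probe sets for olfactory and vomeronasal receptors lay. Array medians ran from 5.27 to 5.34. Of 13 hypothalamic marker genes, 12 had a mean above background, and the mean of that list ran from 7.41 to 7.82 over the 22 arrays. Markers of the neighbouring thalamus differed between mice: their mean was 6.72 and 6.22 in controls 3 and 1, 6.34 in replicate 2 of day 14 and 6.01 in replicate 1 of day 17, and at most 5.82 in the other 18 arrays.

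Lrg1, A2m and Bcl3 were the genes with an unadjusted limma p below 0.05 against control on day 10 or on day 14. Lrg1 was higher by 0.96 ± 0.25 on day 10, 0.82 ± 0.23 on day 14 and 0.52 ± 0.24 on day 17. A2m was higher by 0.45 ± 0.17, 0.59 ± 0.16 and 0.65 ± 0.16, and Bcl3 by 0.52 ± 0.11, 0.25 ± 0.10 and 0.01 ± 0.10. None of these single comparisons with control passed adjustment over all genes. Bcl3 did pass the test of any difference between the 4 groups.

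By day, limma called 0 of the 8 genes higher and 0 lower on day 10, where 0.101% of all genes were called higher and 0.00531% lower. The same counts of 0 and 0 held on day 14 (0.197% and 0.0213% of all genes) and on day 17 (0.436% and 0.685%). At an unadjusted limma p below 0.05, 3 of 8 were higher on day 10 (Lrg1, Bcl3 and A2m, against 5.27% of all genes), 3 on day 14 (the same 3, against 4.28%) and 2 on day 17 (Lrg1 and A2m, against 6.13%). None was lower at that level, where 5.43%, 6.18% and 10.5% of all genes were lower. The mean was above the control mean for 8 of 8 genes on days 10 and 14 and for 7 of 8 on day 17, against 50.3%, 48% and 46.3% of all genes. Under at least 1 alternative the sign turned for Serpina3n and Cfb on day 10, and for Serpina3n, Timp1, Cp, Serping1 and Cfb on day 14. On day 17 it turned for 5 of the 7 genes with a higher mean, most often for Bcl3 (10 of 37 alternatives) and Cfb (7). Another scaling turned Bcl3 (-0.01 with arrays centred on their medians and -0.02 after a second quantile normalization) and Cfb (-0.01 after the latter), and the endothelium covariate given below turned these as well as Lrg1, Cp and Serping1. The median difference over the 8 was 0.48 on day 10, 0.36 on day 14 and 0.28 on day 17, beside a median over all genes of 0.00, -0.00 and -0.01. Over all 18 tumour-bearing mice 0 of 8 were called, where 0.351% of all genes were called higher and 0.292% lower, and 4 were higher at an unadjusted limma p below 0.05 (Lrg1, Cp, Bcl3 and A2m, against 5.83%), with 0 lower (8.92%). Every tumour-bearing mouse lay above every control for 2 of 8 genes on day 10 (Lrg1 and Bcl3, against 2.21% of all genes), 1 on day 14 (Lrg1, against 0.776%) and 1 on day 17 (A2m, against 1.66%). Taking all tumour-bearing mice together, 0 of 8 did so (0.159% of all genes), and 8 of 8 had a higher mean (48.3%).

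**Figure D1:**
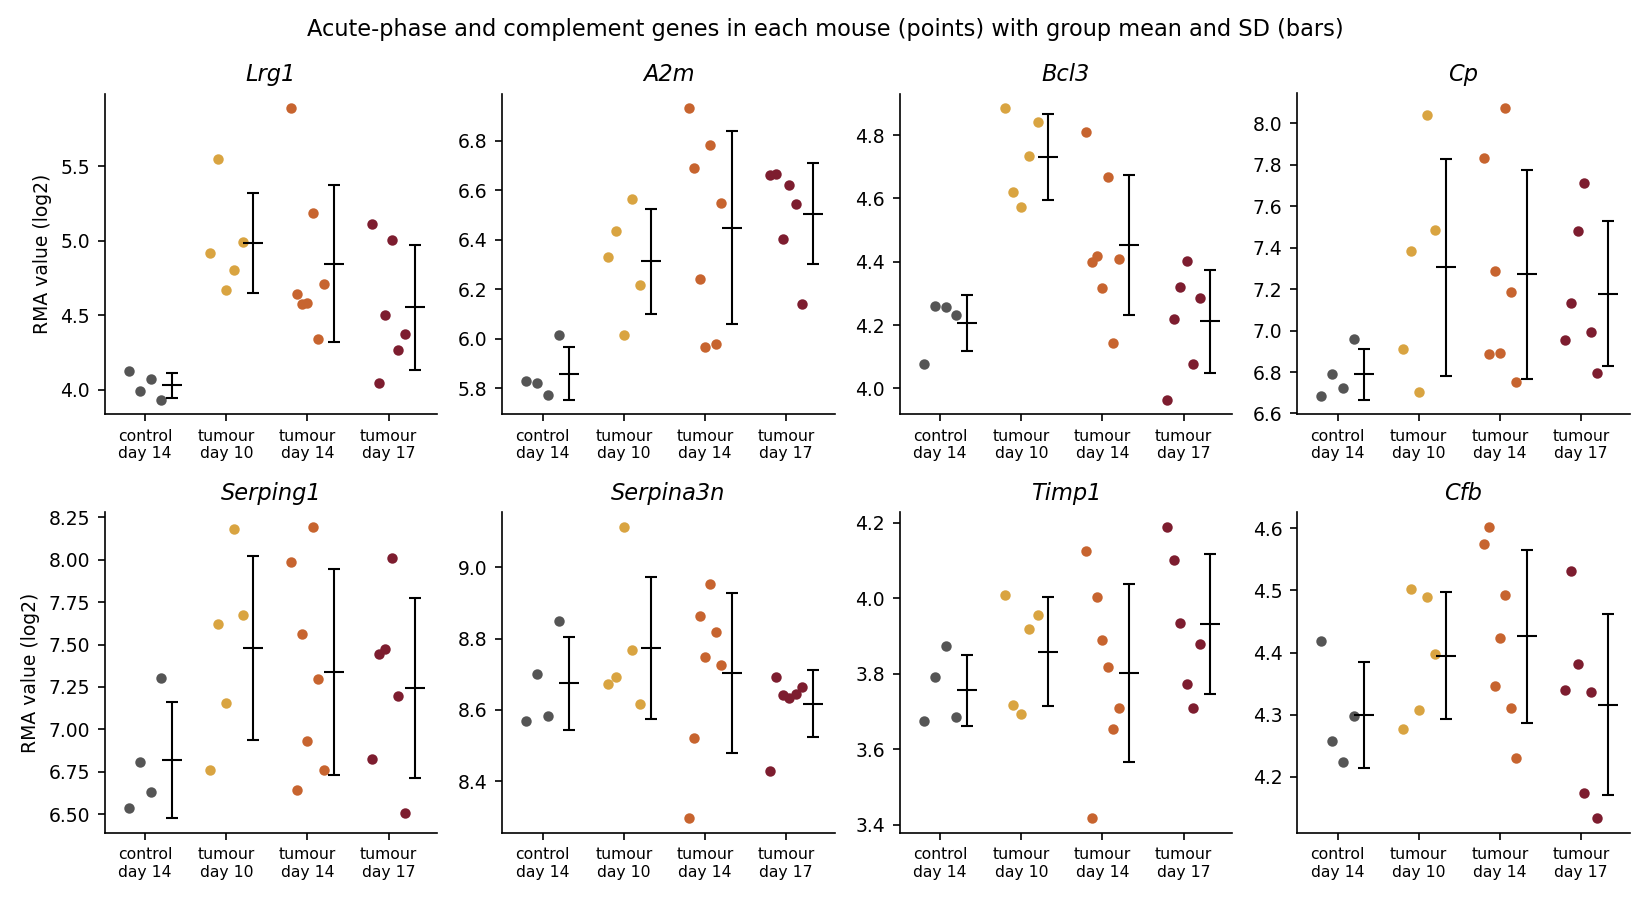
RMA values (log2, vertical axis, a separate range for each gene) of the 8 genes in the controls and in tumour-bearing mice of days 10, 14 and 17; points are mice and bars are the group mean and SD. Lrg1 on day 10 (4.67 to 5.55) lies above every control (3.93 to 4.12), while Serpina3n overlaps the controls in every group.

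Lrg1 encodes leucine-rich alpha-2-glycoprotein, a secreted protein of the liver and of vessels that modulates TGF-beta signalling in endothelial cells. Its values were 4.12, 3.99, 4.07 and 3.93 in controls 1 to 4, and 4.92, 5.55, 4.67, 4.80 and 4.99 in replicates 1 to 5 of day 10. On day 14 the lowest, median and highest values were 4.34, 4.64 and 5.89, and on day 17 they were 4.05, 4.44 and 5.11. All 5 mice of day 10, all 7 of day 14 and 5 of 6 of day 17 were above every control, and the tumour-bearing mice ranged widely while the controls lay close together. The differences correspond to 1.94-fold, 1.76-fold and 1.44-fold (limma unadjusted p = 0.000929, 0.00205 and 0.0411, adjusted p = 0.174, 0.167 and 0.279). The difference over all tumour-bearing mice was 0.77 ± 0.21 (limma adjusted p = 0.0824), and leaving out replicate 1 of day 14, which held the highest Lrg1 value, brought that adjusted p below 0.05.

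A2m encodes alpha-2-macroglobulin, a broad protease trap that is cleared by the receptor Lrp1. Its values were 5.83, 5.82, 5.77 and 6.01 in controls 1 to 4, and 6.33, 6.44, 6.01, 6.56 and 6.22 in replicates 1 to 5 of day 10. The lowest, median and highest were 5.97, 6.55 and 6.93 on day 14, and 6.14, 6.58 and 6.66 on day 17. Every mouse of day 17 was above every control, as were 4 of 5 of day 10 and 5 of 7 of day 14, so only day 17 was free of overlap with the controls. The differences correspond to between 1.37-fold and 1.56-fold (limma adjusted p = 0.342, 0.132 and 0.0516). The day 17 difference lay close to the threshold: its adjusted p fell below 0.05 without replicate 1, 2, 4 or 6 of day 14 or without replicate 6 of day 17.

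Bcl3 encodes an atypical I-kappa-B protein that binds NF-kB p50 and p52 dimers in the nucleus and is itself induced by cytokines. Its values were 4.08, 4.26, 4.26 and 4.23 in controls 1 to 4, and 4.89, 4.62, 4.57, 4.73 and 4.84 in replicates 1 to 5 of day 10. The lowest, median and highest were 4.14, 4.41 and 4.81 on day 14, and 3.96, 4.25 and 4.40 on day 17. Day 10 did not overlap the controls, 6 of 7 mice of day 14 and 3 of 6 of day 17 were above them, and day 17 lay around the control level. The difference of day 10 from control was 1.44-fold (limma adjusted p = 0.0693), that of day 14 was 1.19-fold (adjusted p = 0.389) and that of day 17 was 1.00-fold (adjusted p = 0.986).

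The test of any difference between the 4 groups called Bcl3 (F = 11.8, limma adjusted p = 0.0318), the only one of the 8 genes, where 0.335% of all genes were called. The F test gave adjusted p = 0.198 for Lrg1 and 0.179 for A2m, and between 0.623 and 0.807 for the other 5. Between days, the day 17 level of Bcl3 differed from that of day 10 by -0.52 ± 0.10 (limma unadjusted p = 2.48e-05, adjusted p = 0.156). The differences of day 14 from day 10 (-0.28 ± 0.09) and of day 17 from day 14 (-0.24 ± 0.09) had limma adjusted p of 0.530 and 1.00. Limma called 0 of the 8 genes in each of these 3 comparisons, where 0.00531% of all genes were lower on day 14 than on day 10 and 0% were called otherwise. At an unadjusted limma p below 0.05, Bcl3 alone of the 8 was lower in each (4.09% of all genes for day 14 against 10, 5.22% for day 17 against 10 and 2.35% for day 17 against 14). The F call of Bcl3 ended when any 1 of 10 arrays was left out: control 1, 2 or 3, replicate 1, 2, 4 or 5 of day 10, or replicate 1, 2 or 5 of day 17 (adjusted p up to 0.0912 without control 1). It also ended in a fit without the 4 arrays highest in thalamus markers (adjusted p = 0.357). That fit lacks controls 1 and 3 and so has less precision, and its day 10 difference of Bcl3 was 0.49, beside 0.52 with all arrays.

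**Figure D2:**
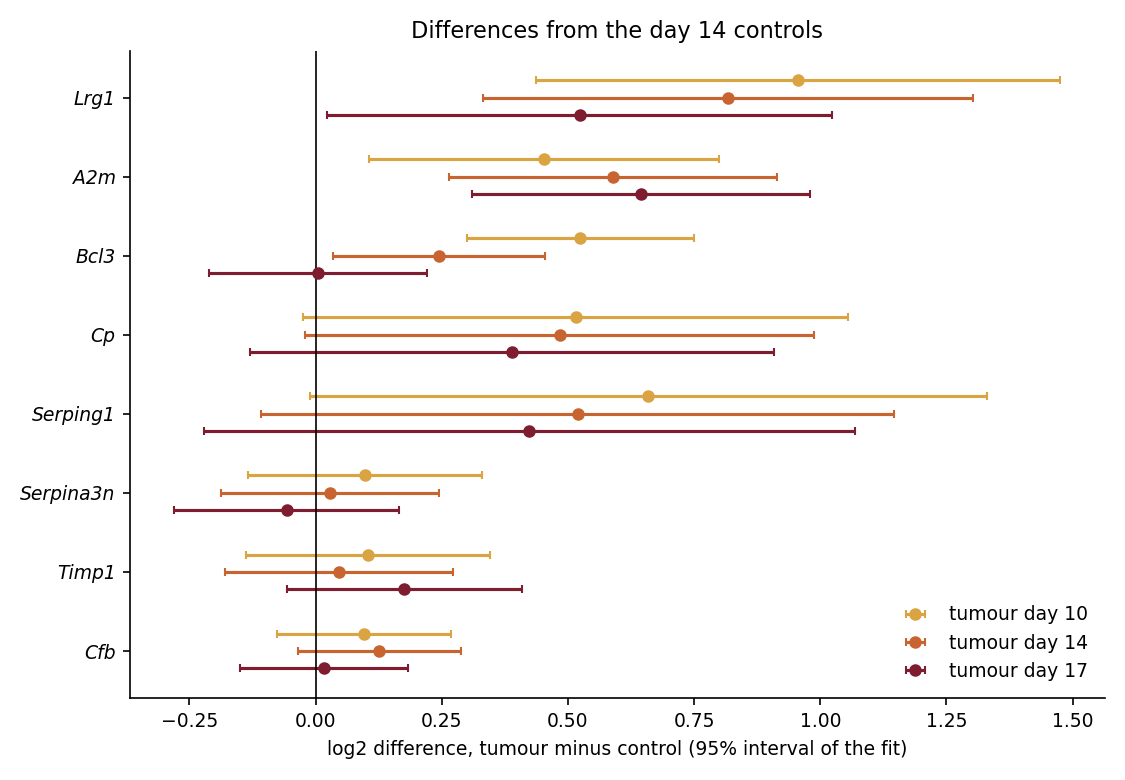
Log2 difference, tumour minus control (horizontal axis), of the 8 genes on days 10, 14 and 17, with points for the estimate and bars for the 95% interval of the limma fit before any adjustment over genes. Bcl3 goes from 0.52 on day 10 to 0.01 on day 17, A2m from 0.45 to 0.65, and Serpina3n lies near 0 on each day.

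Over the 22 arrays, the 5 genes outside the list whose values followed Bcl3 most closely were Tmem139, Ppp1r3b, Lrrk1, Syngr4 and Arpc1b. The measure was the root mean square difference between values centred on each gene's mean. It was 0.162 for Tmem139, 0.166 for Ppp1r3b, 0.166 for Lrrk1, 0.167 for Syngr4 and 0.171 for Arpc1b, beside 0.284 for the median gene and 0.257 for Bcl3 against its own mean. Arpc1b, a subunit of the Arp2/3 complex that nucleates actin, was 0.30 ± 0.09 above control on day 10 and 0.04 ± 0.09 above it on day 17 (limma adjusted p = 0.266 and 0.856). As the 5 genes were chosen by likeness to Bcl3 on the same arrays, a similar course over the days follows from the choice.

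Cp and Serping1 had higher means in every tumour-bearing group, with a spread between mice as wide as the difference. Cp encodes ceruloplasmin, a copper-bearing ferroxidase, and Serping1 encodes the C1 inhibitor, which blocks the C1r, C1s and MASP proteases at the entry of the complement cascade. Cp was 6.68, 6.79, 6.72 and 6.96 in controls 1 to 4, and 6.91, 7.38, 6.70, 8.04 and 7.48 in replicates 1 to 5 of day 10. Its lowest, median and highest values were 6.75, 7.19 and 8.07 on day 14, and 6.80, 7.06 and 7.71 on day 17. Each tumour-bearing group reached from the control level to well above it. The differences were 0.52 ± 0.26, 0.48 ± 0.24 and 0.39 ± 0.25 on days 10, 14 and 17 (limma adjusted p = 0.491, 0.500 and 0.449).

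Serping1 was 6.54, 6.81, 6.63 and 7.30 in controls 1 to 4, and 6.76, 7.62, 7.16, 8.18 and 7.67 in replicates 1 to 5 of day 10. Its lowest, median and highest values were 6.64, 7.30 and 8.19 on day 14, and 6.51, 7.32 and 8.01 on day 17. Control 4 was the highest control for both Cp and Serping1, and the groups overlapped on every day. The differences were 0.66 ± 0.32, 0.52 ± 0.30 and 0.42 ± 0.31 (limma adjusted p = 0.475, 0.569 and 0.517). In whole tissue, more cells of a type and more RNA per cell cannot be told apart.

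Mice high in several of the 8 genes were also high in markers of meningeal fibroblasts, the collagen-making cells of the brain's coverings. All 6 arrays highest in the mean of the 12 meningeal fibroblast markers were the 6 highest in Serping1, and 5 of them were among the 6 highest in Cp, in Lrg1 and in Bcl3, 4 in Cfb, 3 in A2m and 2 in Serpina3n and in Timp1. Of the 6 lowest, 5 were among the 6 lowest in Cp, 4 in Serping1 and in Timp1, 3 in Cfb and in A2m, 2 in Lrg1 and in Serpina3n, and 1 in Bcl3. The marker mean ran from 5.78 to 6.35 in controls, 5.85 to 6.94 on day 10, 5.67 to 6.97 on day 14 and 5.73 to 6.76 on day 17. Of the 12 markers, 11 were above background, 12 had a higher mean than control on day 10 and 10 on days 14 and 17, and limma called 0 on each day (2 at an unadjusted p below 0.05 on each). Fn1, fibronectin, was higher by 0.61 ± 0.23, 0.82 ± 0.22 and 0.78 ± 0.22, and Mgp by 0.83 ± 0.32, 0.85 ± 0.30 and 0.73 ± 0.31. With the marker mean as a covariate, the difference of Cp was 0.11 ± 0.09, 0.17 ± 0.08 and 0.17 ± 0.08, and that of Serping1 was 0.16 ± 0.12, 0.13 ± 0.11 and 0.15 ± 0.11. The same covariate left Lrg1 at 0.77 ± 0.24, 0.67 ± 0.22 and 0.42 ± 0.22 and A2m at 0.32 ± 0.16, 0.49 ± 0.15 and 0.57 ± 0.15. Bcl3 was then 0.43 ± 0.10 on day 10 and its F test was no longer past the threshold (adjusted p = 0.0521). This covariate and the endothelial one below were chosen after the values were seen, and the part of meningeal tissue in the results was not tested. The group means of the meningeal markers were 6.00 in controls and 6.42, 6.33 and 6.23 on days 10, 14 and 17. The meningeal covariate and the tumour can therefore share part of the same difference.

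**Figure D3:**
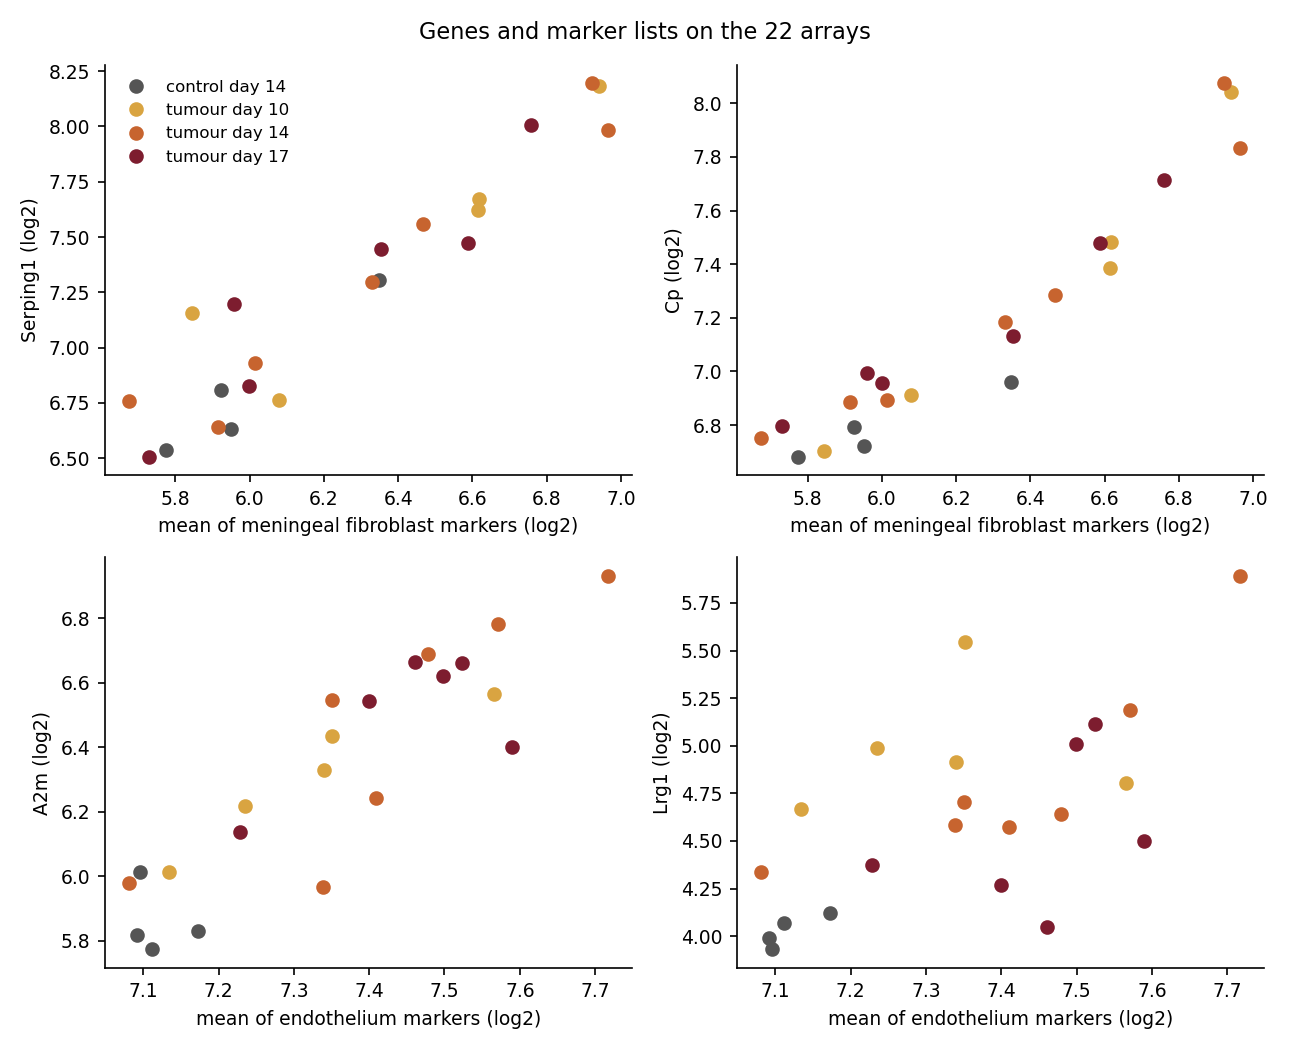
Serping1 and Cp against the mean of the meningeal fibroblast markers (upper panels) and A2m and Lrg1 against the mean of the endothelium markers (lower panels), all in log2 RMA values, with a point for each of the 22 mice coloured by group. The 6 arrays with the highest meningeal marker mean are the 6 highest in Serping1, and the endothelium mean of the controls stays between 7.09 and 7.17.

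Markers of endothelium were also high in mice with high values of several of the 8 genes. The mean of 11 endothelial markers ran from 7.09 to 7.17 in controls, 7.13 to 7.57 on day 10, 7.08 to 7.72 on day 14 and 7.23 to 7.59 on day 17. All 11 markers were above background, and 10, 9 and 10 of them had a higher mean than control on days 10, 14 and 17. On days 14 and 17 the von Willebrand factor gene Vwf (1.44 ± 0.25 and 1.50 ± 0.26, limma adjusted p = 0.0114 and 0.00514) and the glucose transporter gene Slc2a1 (0.52 ± 0.10 and 0.49 ± 0.10) rose. Of the 6 arrays highest in these markers, 5 were among the 6 highest in Cp, 4 in A2m, in Lrg1 and in Serping1, 3 in Bcl3 and in Cfb, and 2 in Serpina3n and in Timp1. Of the 6 lowest, 5 were among the 6 lowest in A2m, 4 in Lrg1, in Cp and in Timp1, 3 in Bcl3, and 2 in Serping1, in Cfb and in Serpina3n. Such overlap was not particular to meningeal and endothelial markers. Of the 6 arrays highest in pericyte markers, 5 were among the 6 highest in Serping1 and 4 in Lrg1, Cp, Bcl3 and Cfb. For red cell markers 5 were shared in Cp and 4 in Serping1, and for reactive astrocyte markers 4 in Cp, Serping1 and Serpina3n. Microglia and thalamus markers shared at most 3 with any of the 8 genes. The share over all genes was not taken. With the endothelial mean as a covariate, A2m was 0.16 ± 0.11, 0.16 ± 0.12 and 0.17 ± 0.13 above control on the 3 days. Lrg1 was then 0.62 ± 0.23 on day 10, 0.32 ± 0.24 on day 14 and -0.02 ± 0.25 on day 17, and Bcl3 was 0.40 ± 0.10, 0.06 ± 0.11 and -0.20 ± 0.12. Cp was then 0.14 ± 0.23, -0.06 ± 0.24 and -0.21 ± 0.25, and Serping1 0.29 ± 0.32, -0.01 ± 0.33 and -0.16 ± 0.35. The part of vessel content in these results was not tested. Since the endothelial markers themselves were higher in tumour-bearing mice, the covariate and the tumour share part of the same difference.

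**Figure D4:**
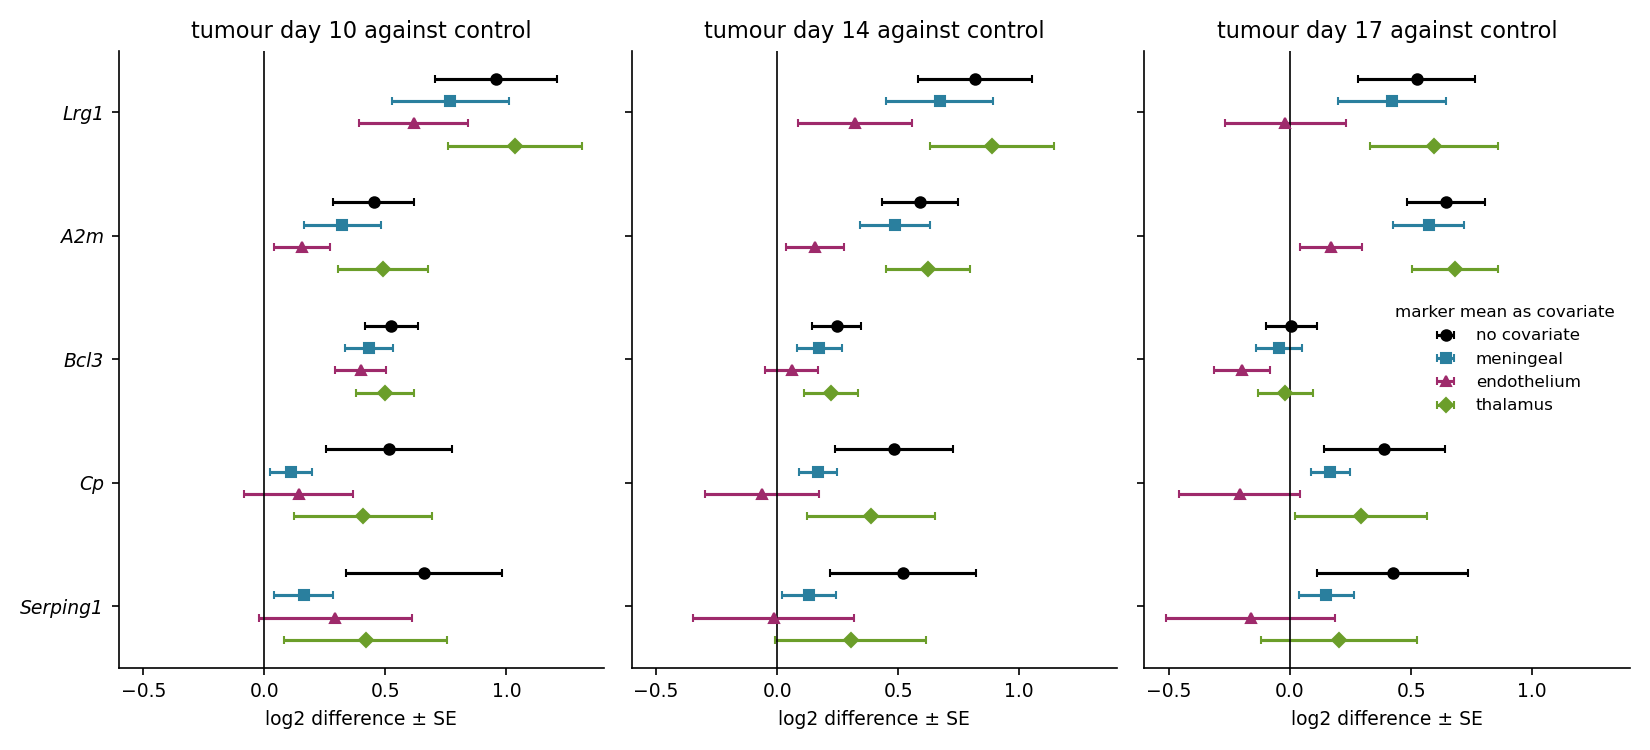
Log2 difference from control with its SE (horizontal axis) of Lrg1, A2m, Bcl3, Cp and Serping1 on days 10, 14 and 17, without a covariate and with the mean of the thalamus, meningeal fibroblast or endothelium markers as a covariate. Cp on day 10 goes from 0.52 to 0.11 with the meningeal mean, and A2m on day 17 goes from 0.65 to 0.17 with the endothelial mean.

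With the mean of the thalamus markers in the fit, Lrg1 was 1.04 ± 0.28, 0.89 ± 0.26 and 0.60 ± 0.26 above control, A2m 0.49 ± 0.19, 0.62 ± 0.17 and 0.68 ± 0.18, and Bcl3 0.50 ± 0.12, 0.22 ± 0.11 and -0.02 ± 0.12. All 13 thalamus markers had a lower mean in each tumour-bearing group than in the controls. Cp was then 0.41 ± 0.28, 0.39 ± 0.26 and 0.29 ± 0.27 above control on days 10, 14 and 17, and Serping1 0.42 ± 0.34, 0.30 ± 0.31 and 0.20 ± 0.32.

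Markers of white cells and liver cells, which also make several of these proteins, were mostly below background. None of 11 neutrophil and monocyte markers and 2 of 10 hepatocyte markers had a mean above background. A higher mean than control was found for 11, 10 and 11 of the former on days 10, 14 and 17. For the latter the counts were 8, 6 and 6, where 50.3%, 48% and 46.3% of all genes were higher. Limma called 0 of either list on each day, and the part of white cells or liver cells in the results was not tested. The mean of the hepatocyte list ran from 3.31 to 3.61 over all arrays and that of the neutrophil and monocyte list from 3.05 to 3.42. Red cell markers were not low: of 3 measured, 2 were above background, and Alas2 and Slc4a1 rose by 2.03 ± 0.33 and 1.69 ± 0.34 on day 14 and by 2.42 ± 0.34 and 2.10 ± 0.35 on day 17. The mean of the 3 ran from 4.01 to 5.00 in controls, 4.82 to 5.78 on day 10, 4.99 to 6.22 on day 14 and 5.63 to 6.86 on day 17, and the part of blood in the results was not tested. The choroid plexus list, of which 8 of 11 genes were above background, had means of 4.45 in controls and 4.45, 4.53 and 4.45 on days 10, 14 and 17. The reactive astrocyte list ran from 5.95 to 6.15 in controls, 6.20 to 6.38 on day 10, 5.99 to 6.42 on day 14 and 6.05 to 6.26 on day 17. Of its 14 measured genes 1 was called on each day, Osmr, which also stands in the gp130 signalling list below. In day order, 12, 11 and 10 of the 14 had a higher mean than control, against 50.3%, 48% and 46.3% of all genes. At an unadjusted limma p below 0.05, 5, 4 and 5 were higher and 0, 0 and 1 lower.

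Serpina3n, Cfb and Timp1 had differences from control between -0.06 and 0.18 on the 3 days. Serpina3n encodes a secreted inhibitor of serine proteases. It was 8.57, 8.70, 8.58 and 8.85 in controls 1 to 4, and 8.67, 8.69, 9.11, 8.77 and 8.62 in replicates 1 to 5 of day 10. Its lowest, median and highest values were 8.30, 8.75 and 8.95 on day 14, and 8.43, 8.64 and 8.69 on day 17. Replicate 3 of day 10 was the highest of all arrays, and the groups overlapped. The differences were 0.10 ± 0.11, 0.03 ± 0.10 and -0.06 ± 0.11 (limma adjusted p = 0.783, 0.950 and 0.828), and their unadjusted 95% intervals ran from -0.13 to 0.33, from -0.19 to 0.24 and from -0.28 to 0.16. These intervals do not show that Serpina3n was unaltered. The sign turned in 2 of 37 alternatives on day 10, 6 on day 14 and 2 on day 17, among them the fit with the mean of the thalamus markers (-0.02 on day 10 and -0.08 on day 14) and that with the endothelium covariate (0.12 on day 17).

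Cfb encodes complement factor B, the protease of the alternative route. It was 4.42, 4.26, 4.22 and 4.30 in controls 1 to 4, and 4.28, 4.50, 4.31, 4.49 and 4.40 in replicates 1 to 5 of day 10. Its lowest, median and highest values were 4.23, 4.42 and 4.60 on day 14, and 4.13, 4.34 and 4.53 on day 17, and all groups overlapped. The differences were 0.10 ± 0.08, 0.13 ± 0.08 and 0.02 ± 0.08 (limma adjusted p = 0.712, 0.599 and 0.943).

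Timp1 encodes a secreted inhibitor of matrix metalloproteinases. It was 3.67, 3.79, 3.87 and 3.68 in controls 1 to 4, and 4.01, 3.72, 3.69, 3.92 and 3.96 in replicates 1 to 5 of day 10. Its lowest, median and highest values were 3.42, 3.82 and 4.12 on day 14, and 3.71, 3.91 and 4.19 on day 17. These values lie around the background level of 3.87, where the array resolves little. The differences were 0.10 ± 0.12, 0.05 ± 0.11 and 0.18 ± 0.11 (limma adjusted p = 0.780, 0.912 and 0.446).

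The probe set shared by C4a and C4b, which cannot be assigned to either gene, was higher in most tumour-bearing mice. It read 6.22, 6.15, 6.16 and 6.42 in controls 1 to 4, and 6.50, 6.89, 6.49, 6.77 and 6.60 in replicates 1 to 5 of day 10. Its lowest, median and highest values were 6.26, 6.45 and 6.81 on day 14, and 6.21, 6.53 and 6.68 on day 17. All 5 mice of day 10 were above every control, as were 4 of 7 of day 14 and 5 of 6 of day 17. The differences were 0.41 ± 0.11, 0.25 ± 0.10 and 0.26 ± 0.11, and none passed adjustment over 35556 probe sets (limma adjusted p = 0.285, 0.531 and 0.293). C4a also had a probe set of its own, which was 0.09 ± 0.09, 0.21 ± 0.08 and 0.22 ± 0.08 above control (limma adjusted p = 0.729, 0.345 and 0.175).

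Mice differed in how many of the 8 genes lay above every control. The share of all genes above every control was not taken for single mice. With 4 controls an unaltered gene can lie above all of them by chance, so no count, low or high, is by itself a sign of a response. The 8 genes of a mouse are not separate replicates. On day 10 the counts were 4, 6, 3, 7 and 6 in replicates 1 to 5. On day 14 they were 7, 4, 7, 4, 7, 2 and 3 in replicates 1 to 7, and on day 17 they were 3, 5, 6, 5, 3 and 4 in replicates 1 to 6. Replicate 1 of day 14 was the highest mouse of its group for 4 genes and the lowest for Serpina3n. Its median difference from the control mean over the 8 genes was 0.82, beside 0.01 in replicate 7 of day 14.

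No complement gene that was measured passed the test against control on any day. Of 12 measured early components, 7 terminal and alternative route components, 10 regulators and 8 receptors, limma called 0 on days 10, 14 and 17. Of all genes, 0.101%, 0.197% and 0.436% were called higher and 0.00531%, 0.0213% and 0.685% lower, so 0 in lists this short says little. Means were above control for 10, 6 and 5 early components and 5, 5 and 3 terminal and alternative ones. They were above it for 4, 5 and 4 regulators and for 8, 8 and 6 receptors, against 50.3%, 48% and 46.3% of all genes. At an unadjusted p below 0.05 these 4 lists held 2, 0, 1 and 0 higher and 0, 0, 1 and 0 lower genes on day 10. On day 14 they held 2, 0, 0 and 1 higher and 0 lower genes, and on day 17 they held 1, 0, 0 and 1 higher and 0, 1, 1 and 0 lower. At that level 5.27%, 4.28% and 6.13% of all genes were higher and 5.43%, 6.18% and 10.5% lower. C2, the protease that pairs with C4, was 0.38 ± 0.17, 0.35 ± 0.16 and 0.28 ± 0.17 above control (limma adjusted p = 0.438, 0.455 and 0.410). Cd59b, an inhibitor of the membrane attack complex, had differences of -0.43 ± 0.10, -0.18 ± 0.09 and -0.35 ± 0.10 (limma adjusted p = 0.132, 0.524 and 0.0789). Cfp, properdin, which stabilises the alternative convertase, was at -0.28 ± 0.08 on day 17 (adjusted p = 0.102), and the C5a receptor gene C5ar2 was at 0.29 ± 0.08 on day 14 (adjusted p = 0.119).

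Of 17 measured genes of interleukin-1, TNF and gp130 signalling, which acts upstream of the acute-phase response, 2 were called on each day, and both were higher. The 17 were cytokine and signalling genes as well as receptor genes. Among all genes, 0.101%, 0.197% and 0.436% were called higher on days 10, 14 and 17. At an unadjusted limma p below 0.05, 4, 5 and 3 of the 17 were higher and 0, 1 and 2 lower. The receptor gene Il1r1 rose by 0.91 ± 0.18, 0.91 ± 0.17 and 0.78 ± 0.17, and Osmr, the oncostatin M receptor, by 0.65 ± 0.13, 0.69 ± 0.12 and 0.56 ± 0.12. Of 11 NF-kB and C/EBP factors other than Bcl3, 0 were called on each day, with 1, 2 and 0 higher at an unadjusted limma p below 0.05. Tnfaip3, which restrains NF-kB signalling, was 0.20 ± 0.09, 0.18 ± 0.08 and 0.16 ± 0.08 above control, and the NF-kB subunit gene Relb was 0.22 ± 0.11 above it on day 10 and -0.01 ± 0.11 on days 14 and 17.

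Of 22 other acute-phase genes measured, only 4 had a mean above background and 1 was called on each day, the lipocalin gene Lcn2, which rose by 2.27 ± 0.37 on day 14. Mt1, a metallothionein, was 0.15 ± 0.08, 0.31 ± 0.07 and 0.24 ± 0.07 above control (limma adjusted p = 0.487, 0.0704 and 0.106). Of 2 Serpina3 relatives measured, Serpina3a and Serpina3b, neither was above background. Of 9 Timp and metalloproteinase genes 0 were called, with 0, 2 and 1 higher and 0, 1 and 0 lower at an unadjusted limma p below 0.05 on days 10, 14 and 17. Timp4 was 0.18 ± 0.06 above control on days 14 and 17.

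Of 11 iron handling genes, the context of Cp, 0 were called on days 10 and 14 and 1 on day 17, the transferrin receptor gene Tfrc, which rose by 0.41 ± 0.07 (limma adjusted p = 0.00514). At an unadjusted limma p below 0.05, 0 were higher and 1 lower on day 10, and 1 higher and 1 lower on day 14. Slc40a1, the iron exporter ferroportin, had differences of -0.24 ± 0.11, -0.22 ± 0.10 and -0.24 ± 0.10 (limma adjusted p = 0.430, 0.434 and 0.237). Of 7 genes that encode relatives, receptors or signalling partners of A2m and Lrg1, 0 were called, with 3, 1 and 2 higher at an unadjusted limma p below 0.05. Acvrl1, the endothelial TGF-beta family receptor ALK1, was 0.31 ± 0.12, 0.37 ± 0.12 and 0.39 ± 0.12 above control (limma adjusted p = 0.382, 0.211 and 0.102). Mug1, a relative of A2m, was 0.30 ± 0.10, 0.05 ± 0.09 and 0.29 ± 0.09 above control (limma adjusted p = 0.266, 0.880 and 0.120).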

How the data were processed

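The 10 genes and all gene lists were chosen with earlier results of these data known. The deposited log2 values are RMA output of the authors, per the submitters' processing notes, from 100 ng of RNA with an integrity number above 8, per the labels' protocols. A genome build is not given in the sources used here. Of 35556 probe sets, the platform annotation paired 21218 with 1 gene, 1881 with several and 12457 were unnamed here. The probe set with the highest mean stood for each of 18820 genes, with no filter on low values. One model with 4 group means was fitted by limma 3.58.1 under R 4.3.3 (lmFit and eBayes without trend, 18 residual degrees of freedom), with two-sided tests and Benjamini-Hochberg adjustment, and was tested on simulated data. The number of arrays limits the precision, and 0 pairs of arrays held identical values.

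Named were the 10 genes, genes called in a list or otherwise up to 2 with the smallest p as values, up to 3 markers per marker list, and the 5 genes most like the gene with the largest F. Those that did not pass are examples, given with their values on the other days, and Mt1 was chosen after its values were seen. Odorant receptor genes, small RNAs and predicted genes are never named. Alternatives changed variance moderation, array weights, scaling, the low-value filter, the probe set rule and the samples fitted, added a replicate block, a term for 2 runs of consecutive samples that the labels do not state as a batch, or marker means as covariates, and left out arrays. Deviations of same-numbered arrays of different groups had correlations from -0.19 to 0.35 (median 0.12 over 28 pairs, beside -0.01 over 151 pairs of different number). Not every pair was above 0.1, so the numbers were not used to pair mice.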

Additional observations from a re-analysis of the deposited data

Results flagged for a closer look

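In 36 groups of mice checked (the 8 genes and the probe set shared by C4a and C4b in 4 groups each), the highest or lowest mouse stood apart in 2, and chance alone gives about 1 in 20. Serpina3n in replicate 1 of tumour day 17 was the lowest of 6 mice at 8.43, with a gap to its neighbour of 0.777 of the group's range (critical value 0.625). Bcl3 in control 1 was the lowest of 4 controls at 4.08, with a gap of 0.854 of the range (critical value 0.829). Both arrays were among the 4 highest in thalamus markers, with means of 6.01 and 6.22. Without control 1, the F test of Bcl3 had limma adjusted p = 0.0912.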

How the results depend on the processing

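In the fit as reported, 0 of the 8 genes were called against control or between days, so no called difference was there to reverse. Differences called under an alternative kept the sign of the fit as reported. Signs of differences that were not called did turn, as for Bcl3 and Cfb on day 17 (10 and 7 of 37 alternatives) and Serpina3n on day 14 (6). Of the 8 genes, A2m was called on day 17 (1 gene) with a variance trend, array weights, median centring, only genes above background, or only the groups compared. Over all tumour-bearing mice 1 was called with a variance trend or only genes above background, and 2 with array weights (Lrg1 and A2m). On day 10, 2 were called (Lrg1 and Bcl3) with array weights or only the groups compared. The replicate block gave 1 call on day 14, on day 17 and over all tumour-bearing mice (A2m in each) and 0 in the F test, where the adjusted p of Bcl3 was 0.0794. The F test also called 0 in the later run alone, with the thalamus, meningeal or endothelium covariate, and without the 4 arrays highest in thalamus markers, where the adjusted p of Bcl3 ran from 0.0521 to 0.368. With the endothelium covariate, 1 gene, Bcl3, was called lower on day 17 than on day 10. Leaving out 1 array gave 0 to 1 calls on day 10 (Bcl3, without replicate 1 of day 17 or replicate 1 or 6 of day 14), on day 14 (A2m, without replicate 6 of day 14), on day 17 and over all tumour-bearing mice (A2m without replicate 3 of day 10, replicate 6 of day 17 or replicate 4 or 6 of day 14, and Lrg1), 0 to 0 between days and 0 to 1 in the F test. The causes were not tested. Timp1, near background, was left out by the filter on low values. Only 5 of 22 arrays resembled an array of the same number most.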
